A study of Mus musculus with 48 samples.

Results

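The 4 enrichment and 4 input libraries of 2-month-old mouse liver were taken from the age experiment, 8 of the 48 libraries of the study, and every enrichment library was compared with the input library of the same replicate number. All animals were C57BL/6 mice of unstated sex, and each replicate was a separate liver. In ONE-seq, total RNA was treated once with the biotin reagent HEEB and the enzyme ADPRC, which attach biotin to the NAD cap, and a small part was set aside as input. The rest was bound to streptavidin and released with NudC, a bacterial enzyme that cleaves NAD caps, and both fractions were sequenced after polyA selection. The count table holds 55335 genes, and those without a count in over 25% of the 8 libraries were left out, which kept 15513 for testing. The 4 livers of 18-month-old animals, processed in the same way, served only for comparison.

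Most eukaryotic messenger RNAs begin with an m7G cap, which protects the transcript and recruits the translation machinery. The metabolite NAD can take its place at the first nucleotide when transcription starts with it instead of ATP, and such NAD caps are removed by enzymes that include Dxo and some Nudix hydrolases. The liver is a main site of NAD synthesis, and its hepatocytes express plasma proteins, cytochromes P450 and metabolic enzymes at high levels. The comparison asked which transcripts of young liver were over- or under-represented among the captured RNAs.

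Input libraries held 9149931 to 10800709 counts and enrichment libraries 10768524 to 12920577. At these depths 3 counts, taken as the lowest level a library could show, equalled 0.232 to 0.328 cpm (counts divided by library size and set to a common scale), a limit that covers counting error only. Libraries of 1 kind correlated at 0.974 or more in log2 cpm. As a check of the labelled tissue, 6 hepatocyte markers, Alb and Ttr among them, summed to 89418 to 109253 cpm in the input and 99448 to 118595 cpm in the enrichment libraries. No library stood apart in total count. In enrichment replicate 2, however, short transcripts were higher than in the other 3. The median log2 ratio to input of the 1044 protein-coding genes with the shortest coding sequences and 3′ UTRs was 0.85 in pair 2, against 0.52, 0.52 and 0.62 in pairs 1, 3 and 4.

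Calls required an adjusted p under 0.05 and a 2-fold change, upward for enriched and downward for depleted genes. On these criteria 1947 genes (12.6% of those tested) were enriched and 2243 (14.5%) were depleted. A total of 224 genes were enriched and 347 depleted at least 4-fold. Values of enrichment and input did not overlap for 1722 of the enriched and 2067 of the depleted genes, while 46.6% of all tested genes showed no overlap in 1 direction or the other. Enriched calls were found in every decile of input level, but in the lowest, up to 0.319 cpm, 139 of 1552 genes were enriched and only 2 depleted. The median log2 fold change of all genes was -0.01. These changes are relative to the bulk of the transcripts, as fixed by TMM scaling. With library size alone the median gene moved to -0.38, and 872 genes were enriched and 3820 depleted. The share of higher genes among those with an adjusted p under 0.05 fell from 49.1% to 29.4%.

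**Figure D1:**
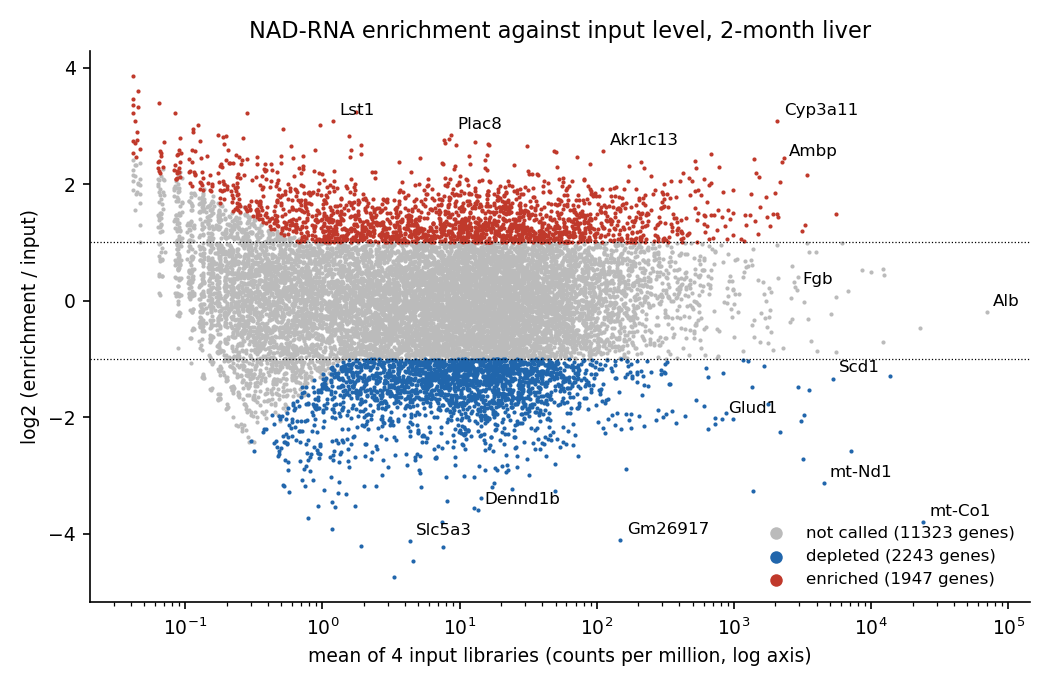
Log2 fold change of enrichment over input (vertical) against the mean of the 4 input libraries in cpm (horizontal, log axis) for 15513 genes, with 1947 enriched genes in red and 2243 depleted genes in blue. Dotted lines mark a log2 fold change of 1 and -1, with mt-Co1 and Cyp3a11 at opposite ends among abundant transcripts. Depleted calls are nearly absent below 0.319 cpm, where a fall can hardly be called.

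The largest enrichment of an abundant transcript was that of Cyp3a11, the main drug- and steroid-oxidizing cytochrome P450 of mouse liver (chr5:145854426-145879964, minus strand, GRCm38). Its input libraries held 2259, 2035, 2150 and 1838 cpm, and its enrichment libraries 18349, 15583, 20448 and 15949 cpm. The groups lay far apart, with a log2 fold change of 3.08 (SE 0.064, 4 of 4 pairs higher, adjusted p = 1.7e-20). Lst1, a leukocyte-specific transcript of the major histocompatibility region (chr17:35185095-35188439), rose from 0.773, 0.997, 2.27 and 0.772 cpm to 6.61, 14, 12.5 and 7.87 cpm. Its fold change on the log2 scale, 3.09 (SE 0.23), was as large, but it rested on far fewer counts.

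Nuclear proteins were also among the 10 most enriched protein-coding genes. Taf13, a subunit of the general transcription factor TFIID (chr3:108571698-108583222), had 11.7, 11.9, 14.1 and 13.9 cpm in input against 87.5, 80.5, 83.0 and 89.8 cpm after enrichment, a log2 fold change of 2.72 (SE 0.098). Hdac1, a histone deacetylase (chr4:129516104-129542713), had 6.09 to 9.80 cpm in input and 38.7 to 65.7 cpm in enrichment (log2 fold change 2.75, SE 0.12). Both transcripts were separated from input in every library. Sertad1, a cofactor of cell cycle transcription, rose from a mean of 8.32 ± 1.68 to 57.0 ± 12.9 cpm (SD, n = 4), with a log2 fold change of 2.77. Ppp1r8, a nuclear inhibitor of protein phosphatase 1, rose from 9.48 ± 1.46 to 60.5 ± 11.2 cpm, with a log2 fold change of 2.67. The others were Plac8 (2.84), the uncharacterized 2810006K23Rik, the prostaglandin-forming enzyme Fam213b, also known as Prxl2b, which overlaps Mmel1 on the other strand (2.69), and the actin-binding Cotl1 (2.68).

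The 10 most depleted protein-coding genes came from both the mitochondrial and the nuclear genome. Of them, 4 were genes of the mitochondrial genome, which is transcribed by its own polymerase. The subunit of cytochrome c oxidase encoded by mt-Co1 had 27317, 22279, 24724 and 20857 cpm in input and 1898, 2717, 1306 and 1266 cpm after enrichment, a log2 fold change of -3.79 (SE 0.12, adjusted p = 1.4e-17). The lowest input library was thus still several times above the highest enrichment library. mt-Nd1, of complex I, fell from 4026-5077 to 409-636 cpm (log2 fold change -3.13, SE 0.096). The log2 fold changes of mt-Co3 and mt-Co2 were -3.24 and -3.12, at input means of only 24.1 and 17.8 cpm. Reads with several matches were not counted, and mt-Co3 overlaps mt-Atp6 on the same strand. Whether this lowered their levels was not tested.

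The other 6 were nuclear genes with 5028 to 28441 bases of merged exons. Dennd1b, Atr and Ptpn4 overlap further genes on both strands, and Pdpr and Nbeal1 each overlap 1 gene on the other strand, whose reads cannot be told apart from theirs. Dennd1b, an activator of Rab GTPases (chr1:138963435-139178960, 19408 bases of merged exons), had 15.8, 10.8, 14.3 and 13.7 cpm in input and 1.52, 1.33, 0.442 and 1.28 cpm in enrichment, a log2 fold change of -3.59 (SE 0.23). Atr, the kinase of the DNA damage checkpoint, had 3.99 to 7.93 cpm in input and at most 1.12 cpm in enrichment, with no count in replicate 2 (log2 fold change -3.19). Pdpr, which regulates the pyruvate dehydrogenase phosphatase, fell from 12.8 ± 1.77 to 1.09 ± 0.242 cpm (SD, n = 4). The phosphatase gene Ptpn4 and the neurobeachin relative Nbeal1 had log2 fold changes of -3.44 and -3.38. The most negative value was that of Slc5a3, the sodium/myo-inositol cotransporter, at -4.12 (SE 0.42). Slc5a3 overlaps Mrps6 on the same strand, and reads from the shared part could not be assigned to either.

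**Figure D2:**
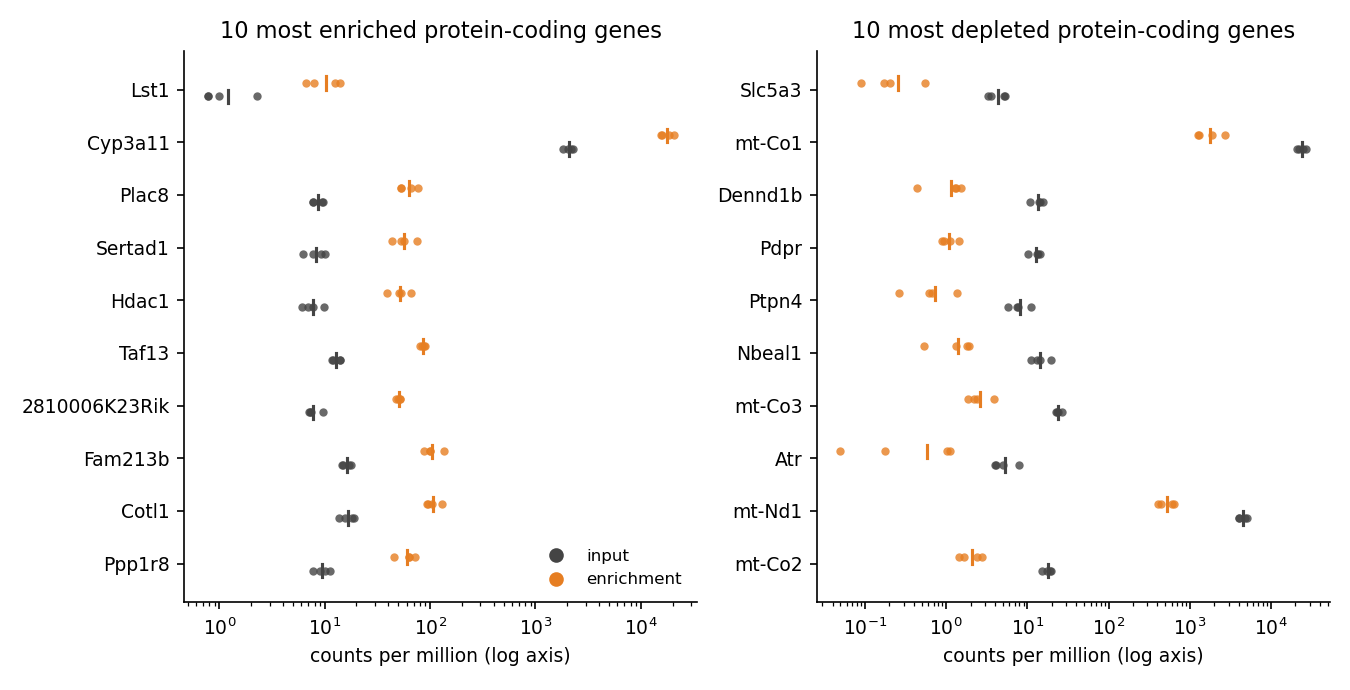
Level in cpm (log axis) in each of the 4 input (dark grey) and 4 enrichment (orange) libraries for the 10 most enriched and the 10 most depleted protein-coding genes, with vertical bars at the group means, and a library at 0 (Atr, enrichment replicate 2) is drawn at the far left. In none of these 20 genes did the groups overlap, but they were chosen by fold change and by 4 of 4 pairs. Of all tested genes, 46.6% showed no overlap.

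Among the genes chosen for qRT-PCR in the study, Akr1c13, an aldo-keto reductase, rose from 112 ± 9.55 cpm (SD, n = 4) in input to 721, 599.9, 705 and 611 cpm in enrichment (log2 fold change 2.56, SE 0.072). Cyp2c70, which makes the muricholic bile acids of mice, rose from 676 ± 81.7 to 3872 ± 453 cpm (log2 fold change 2.52). Med17, a Mediator subunit, and Ufc1, the conjugating enzyme for the ubiquitin-like protein Ufm1, had log2 fold changes of 2.49 and 2.47. The values of these 4 genes were 2.09 to 2.18 with library size alone, and the groups did not overlap in any of them. Atp5k, a subunit of ATP synthase, had 53.1, 68.3, 63.1 and 59.4 cpm in input and 87.4, 231, 96.4 and 109.9 cpm in enrichment. Its log2 fold change, 0.998 (SE 0.12), was just under the threshold, and replicate 2 was more than 2 times any other enrichment library. Fgb, a fibrinogen chain, overlapped between the groups but was slightly higher in 4 of 4 pairs (log2 fold change 0.19, SE 0.062). Its sign turned to -0.19 with library size alone. Serpina1e, an alpha-1-antitrypsin paralog, was depleted, with 9154 to 16148 cpm in input and 4208 to 6103 cpm in enrichment (log2 fold change -1.30, SE 0.062).

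Transcript classes differed. Of 13153 protein-coding genes outside the mitochondrial genome, 11.9% were enriched and 15.9% depleted, with a median log2 fold change of -0.07. Of 1150 processed pseudogenes, which are reverse-transcribed copies of messenger RNAs, 224 (19.5%) were enriched and 63 (5.48%) depleted (median 0.35). Long non-coding RNAs had 133 of 917 (14.5%) enriched and 35 (3.82%) depleted (median 0.43). Among the long non-coding genes that averaged 100 counts or more, 18 of 54 (33.3%) were enriched and 5 (9.26%) depleted, beside 16.5% and 13.7% of the 6981 genes of all classes at that level. Protein-coding genes nevertheless made up 80.2% of all enriched genes.

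Pseudogenes and long non-coding genes are short, with medians of 640 and 1770 bases against 4365 for protein-coding genes. Once the median of all genes in the same length decile was subtracted, the medians were -0.16 for processed pseudogenes, 0.09 for long non-coding and 0.01 for protein-coding genes. The 71 processed pseudogenes named for a ribosomal protein included 4 enriched and 6 depleted members (median -0.06), whereas the other 1079 included 220 enriched and 57 depleted ones (median 0.39). Reads of such copies that also matched the parent gene were not counted, so their counts are uncertain.

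Single members are described next. The processed pseudogene Gm11223 (chr4:69925630-69926079) had 0.677, 1.27, 2.35 and 2.74 cpm in input and 11.5, 16.9, 18.5 and 19.3 cpm in enrichment, a log2 fold change of 3.24. Gm11189 and Gm11966 followed with 3.01 and 2.83. Gm20319 is antisense to Il1rap, and reads of the 2 genes cannot be told apart without strand; it had 38.8, 41.2, 37.4 and 30.5 cpm in input and 162, 218, 157 and 131 cpm in enrichment (log2 fold change 2.16). Gm32461 and Gm49431 had log2 fold changes of 1.97 and 1.90, and the latter overlaps Cyp2d35-ps on the other strand.

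The lowest pseudogene was Gm13340. It (chr2:22588103-22589647) spans 1545 bases, as mt-Co1 does. It had 8.60, 6.26, 7.94 and 7.03 cpm in input and 0.61, 0.552, 0.353 and 0.599 cpm in enrichment. Its log2 fold change of -3.80 was next to the -3.79 of mt-Co1. Gm28437 and Gm29216, near each other on chromosome 1, had log2 fold changes of -3.20 and -3.02. Among non-coding genes, Gm26917 (chr17:39843013-39846341), a lincRNA by annotation, fell from 114, 85.1, 180.3 and 215 cpm to 6.20, 8.40, 6.27 and 13.4 cpm, a log2 fold change of -4.10 (SE 0.14). All 3 tested nuclear rRNA genes were depleted too (median -3.53), at a median input of 7.61 cpm. Both fractions were polyA-selected, and the part of this step in these values was not tested. Malat1, a nuclear-retained RNA, had a log2 fold change of -1.55, but its levels varied from 7.98 to 35.6 cpm in input, and the groups overlapped. Within pairs it was always lower in enrichment, with log2 ratios of -2.18, -1.01, -1.86 and -1.08.

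Calls varied with transcript length. The median length of merged exons was 2253 bases for enriched, 3670 for uncalled and 7367.5 for depleted genes. Among genes of 57 to 1020 bases, the shortest decile, 21.5% were enriched and 5.03% depleted. In the decile of 1021 to 1773 bases these shares were 24.4% and 3.23%. They crossed between 3842 and 4648 bases (9.76% and 9.05%), and in the longest decile, from 9283 bases, only 1.81% of genes were enriched and 44.1% depleted. Median log2 fold changes went from 0.53 in the second to -0.93 in the longest decile.

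Across 15503 genes, Spearman's rho of log2 fold change with length was -0.47, and -0.46 to -0.39 in the single pairs. The same genes are measured in all pairs, and genes are not independent replicates, so this is a description. It was -0.52 in protein-coding genes, -0.49 in genes averaging 100 counts or more, and -0.47 with library size alone. The last was bound to stay, because a change of scaling shifts all genes nearly alike and hardly alters their ranks. With GC content rho was 0.01, and with the input level -0.04. In 18-month-old livers rho with length was -0.46.

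The coding sequence and the 3′ UTR both went with this trend. In protein-coding genes rho was -0.60 with the whole length of the longest coding transcript, -0.52 with the coding sequence, -0.35 with the 3′ UTR and -0.13 with the 5′ UTR. Depleted genes had a median coding sequence of 2601 bases and a 3′ UTR of 2256, enriched genes 801 and 624. In the quartile of genes with the shortest coding sequences, the median log2 fold change went from 0.69 to 0.00 as the 3′ UTR lengthened. In the quartile with the longest coding sequences it went from -0.51 to -1.19. In that last group, 57.6% of genes were depleted and 0.43% enriched.

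**Figure D3:**
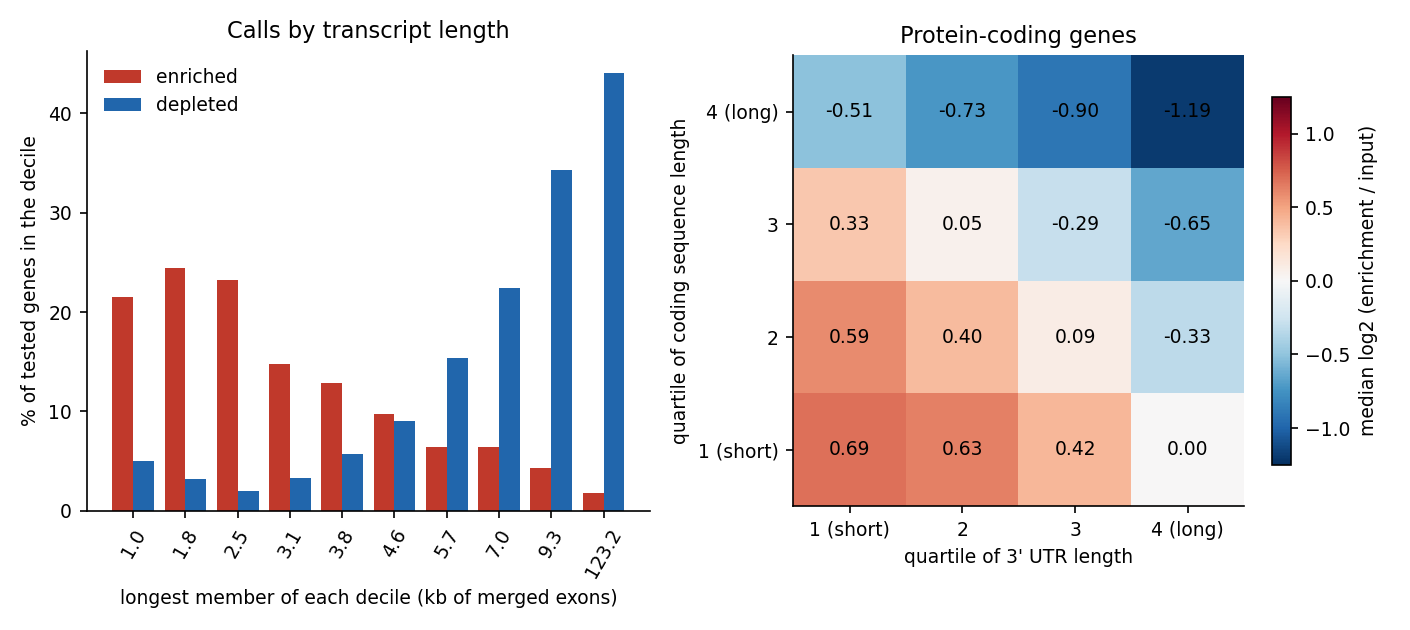
Left, percent of genes called enriched (red) or depleted (blue) in each decile of merged exon length; the labels give the longest member in kb. Right, median log2 fold change of protein-coding genes by quartile of coding sequence (rows) and 3′ UTR (columns), from 0.69 for short with short to -1.19 for long with long.

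Length did not order all genes. Genes of the mitochondrial genome are short, yet 26 of 29 were depleted. Hdac1, Taf13 and Med17, with 3155 to 4230 bases of merged exons, had log2 fold changes of 2.75, 2.72 and 2.49. Their longest coding transcripts had 2038, 2443 and 3964 bases, beside a median of 3105 for protein-coding genes. Hdac1 and Taf13 were thus not long by that measure. Egfr, with 11326 bases, had a log2 fold change of -0.05 (SE 0.079).

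NAD caps need an adenosine at the first position, and the annotated start was therefore compared. By the RefSeq starts of 10927 genes, A was the first base of 35.3% of enriched, 29.7% of uncalled and 25.3% of depleted genes, and G of 42.0%, 45.7% and 49.5%. By the most 5′ GENCODE start of 15503 genes, A was first in 37.2%, 30.8% and 24.6%. Within quintiles of length, the RefSeq share with A was higher in enriched than in depleted genes in each quintile (39.1% and 22.2% in the second, 36.4% and 26.7% in the longest), but the shortest quintile held only 18 depleted genes. With GENCODE starts the order turned in the shortest quintile (47.7% in enriched and 61.7% in depleted genes). An annotated start is not a measured one. The letters TATAAA, sought on both strands of the windows from 250 bases before to 50 after the start, were present in 11.1% of enriched, 7.98% of uncalled and 5.01% of depleted genes, and in 13.6% of all 32851 windows of the table.

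The windows from 20 bases before the RefSeq start to 10 from it are shown for the first 4 genes of each direction that have one, to show how varied the first base (in capitals) is at either extreme; all are in GRCm38.p6.
Cyp3a11, chr5:145879845-145879874, minus strand: tcagtgcagcagagtgggcaGagggaagca
Plac8, chr5:100572196-100572225, minus strand: ctcctttcctcggagtctctCtatttgtag
Sertad1, chr7:27486933-27486962, plus strand: tggagtcgtgcgccggagtcAgaactgcgc
Taf13, chr3:108571679-108571708, plus strand: cagccgccggtgggcgggttCagaaggctg
Slc5a3, chr16:92058302-92058331, plus strand: gcctcgcggggtcgcacggtGctttcgccg
Dennd1b, chr1:138963689-138963718, plus strand: cgggtcgcgggaaccgagagGcgggggcag
Pdpr, chr8:111094725-111094754, plus strand: gccccctttccggccggcgcAgaccctctt
Ptpn4, chr1:119837062-119837091, minus strand: ggcggcccgcggccgtggcgCggccgctgt
An A stood at the annotated start of Sertad1 and of Pdpr, 1 gene of each direction.

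Gene lists by function were described by their counts, beside 12.6% enriched and 14.5% depleted over all tested genes, and by their medians, beside -0.01. Relative to the median of all genes, no list median changed by more than 0.013 between TMM, DESeq2 size factors and library size alone. A change of scaling shifts all genes by nearly the same amount, so this was bound to hold. The medians of 35 of the 45 lists lay above that of all genes. In absolute terms 14 list medians had the other sign with library size alone, and where the balance turned from more enriched to more depleted members, those counts are given beside the list.

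Energy metabolism was divided by genome. Of 83 nuclear subunits of the respiratory complexes and ATP synthase, 30 (36.1%) were enriched and 1 was depleted, with a median of 0.80. Complex I, which takes electrons from NADH, had 16 of 37 subunits enriched and 0 depleted (median 0.77). Ndufa8 rose from 78.5, 95.4, 98.4 and 97.4 cpm to 275, 385, 342 and 324 cpm (log2 fold change 1.84). Ndufa4, the most abundant of the list per length, is in it by name, although its protein is a subunit of complex IV. The 16 of 37 include it. Its transcript had 268 to 324 cpm in input and 739.9, 1592, 707 and 890.5 cpm in enrichment, replicate 2 being the highest. The lists of single complexes share a member, which is held only once among the 83.

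Complex III had 4 of 9 subunits enriched, led by Uqcrb, which binds ubiquinone (log2 fold change 2.01), complex II 2 of 4, and complex IV 6 of 17. The exception was Cox7c of complex IV, with 15.5 to 19.5 cpm in input and 4.78 to 9.94 cpm in enrichment (log2 fold change -1.34). ATP synthase had 3 of 17 subunits enriched, led by Atp5j at 2.32; this count was 2 without replicate 2, 5 without replicate 1 and 6 without replicate 3. Of the 82 proteins of the mitochondrial ribosome, 20 were enriched (Mrpl42, 1.90) and 1, Mrpl9, was depleted (-1.29), with a median of 0.53. In pair 2 the median log2 ratio of the 83 nuclear subunits was 1.10, against 0.55, 0.55 and 0.78 in pairs 1, 3 and 4. Without replicate 2, 13 complex I subunits were enriched and 1 was depleted, and 17 and 2 mitochondrial ribosomal proteins. Complex I and the mitochondrial ribosome are themes that the study drew from these libraries, and it also named Sdhc of complex II. The counts of these lists are no independent evidence.

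All 13 protein-coding genes of the mitochondrial genome, both of its rRNAs and 11 of 14 tested tRNAs were depleted, with a median of -2.56 over the 29 genes. The 3 that did not pass the test were the tRNA genes mt-Ta, mt-Tq and mt-Tw, with log2 fold changes of -1.52, -1.69 and -0.26. The count was again 26 without replicate 2, 22 without replicate 4 and 27 with library size alone. Of the 83 nuclear subunits, 52 were called in neither direction, and some of these had values below 0, such as Atp5l (-0.96) and Ndufa3 (-0.71).

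**Figure D4:**
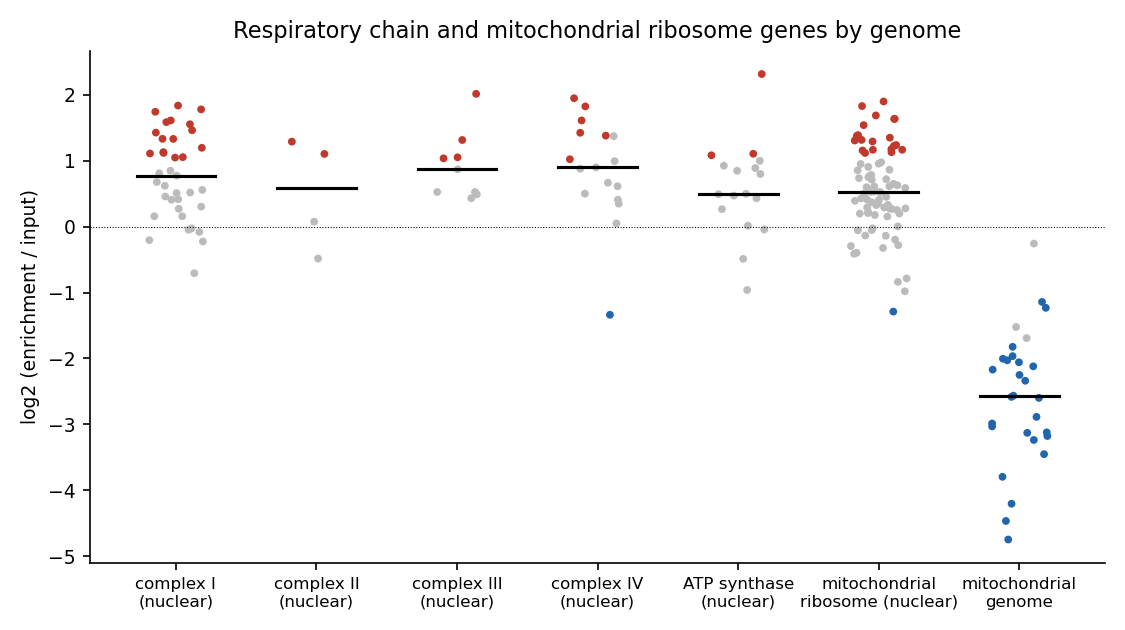
Log2 fold change of each gene (points; red enriched, blue depleted, grey uncalled) and list median (black lines) for nuclear subunits of the respiratory complexes, ATP synthase and mitochondrial ribosome, and for genes of the mitochondrial genome. Nuclear lists have medians of 0.50 to 0.90 and the mitochondrial genome -2.56.

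Hepatocyte lists differed in their balance of calls. Of the transferases that conjugate drugs and hormones to glutathione, glucuronic acid or sulfate, 19 of 48 were enriched and 0 depleted (median 0.93). Mgst1, a membrane-bound glutathione transferase, rose from 3648, 3447, 3572 and 2918 cpm to 12990, 18603, 14961 and 14310 cpm (log2 fold change 2.16). Of the cytochromes P450, a theme the study drew from these libraries, 18 of 68 were enriched and 1 depleted (median 0.44), and 3 were depleted without replicate 1. The depleted one was Cyp7a1, the rate-limiting enzyme of bile acid synthesis, at -1.45, with overlapping groups (32.6 to 87.5 and 11.4 to 34.7 cpm). It was nevertheless lower in every pair, with log2 ratios of -1.12, -1.52, -1.77 and -1.33. Cyp2e1, the alcohol-inducible form, rose in every pair, from 5662-6287 to 11303-13081 cpm, and at 0.998 stayed just under the threshold. Cyp3a44, a paralog of Cyp3a11, had the highest log2 fold change of the list (3.39, SE 0.79) but reached 1.24 cpm at most.

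Antioxidant genes had 13 of 33 members enriched and 0 depleted. Among them Gpx1, a glutathione peroxidase, rose from 2296 ± 324 to 12566 ± 2425 cpm (SD, n = 4), a log2 fold change of 2.44. Of 90 secreted plasma proteins, 17 were enriched and 5 depleted (median 0.33). Ambp, the precursor of alpha-1-microglobulin and bikunin, had 2047, 2332, 2350 and 2277 cpm in input and 10602, 11442, 12784 and 12196 cpm in enrichment (log2 fold change 2.38). The complement component C3 fell from 2814-3989 to 831-1424 cpm (log2 fold change -1.53). Alb, the most abundant, overlapped between 64654-83622 and 54134-73162 cpm, with a log2 fold change of -0.19. Its log2 ratios in the single pairs were -0.19, -0.10, -0.27 and -0.22. None of 19 major urinary proteins passed the 2-fold threshold in either direction (median -0.18), but 5 were depleted with library size alone.

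Of the urea cycle and amino acid breakdown, 16 of 52 genes were enriched and 4 depleted. Bhmt, which remethylates homocysteine, rose in each pair from 785, 1116, 792 and 419 to 4439, 4794, 3885 and 2056 cpm (log2 fold change 2.30), although its own level differed over 2-fold between animals. Glud1, glutamate dehydrogenase, went the other way, from 703-888 to 156-223 cpm (log2 fold change -2.03, SE 0.071). Fatty acid and triglyceride synthesis stood out among metabolic lists with 12 of 35 genes depleted and 1 enriched (median -0.67). Acly, which makes cytosolic acetyl-CoA, had 215, 209.8, 252 and 209 cpm in input and 56.3, 51.8, 41.4 and 49.5 cpm in enrichment (log2 fold change -2.16), and Scd1, the stearoyl-CoA desaturase, had a log2 fold change of -1.34. The enriched one was Plin3, a lipid droplet coat protein (2.56). Cholesterol synthesis had 4 of 23 genes enriched and 1, the feedback regulator Insig1, depleted at -2.0, and 2 and 5 with library size alone.

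Fatty acid oxidation had 6 of 39 genes enriched and 2 depleted, bile acid synthesis and transport 3 and 2 of 23, with the conjugating enzyme Baat at 1.55, and glycolysis and gluconeogenesis 6 and 0 of 29, with Eno1 at 1.65. With library size alone these counts turned to 3 and 6, 1 and 2, and 1 and 5.

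**Figure D5:**
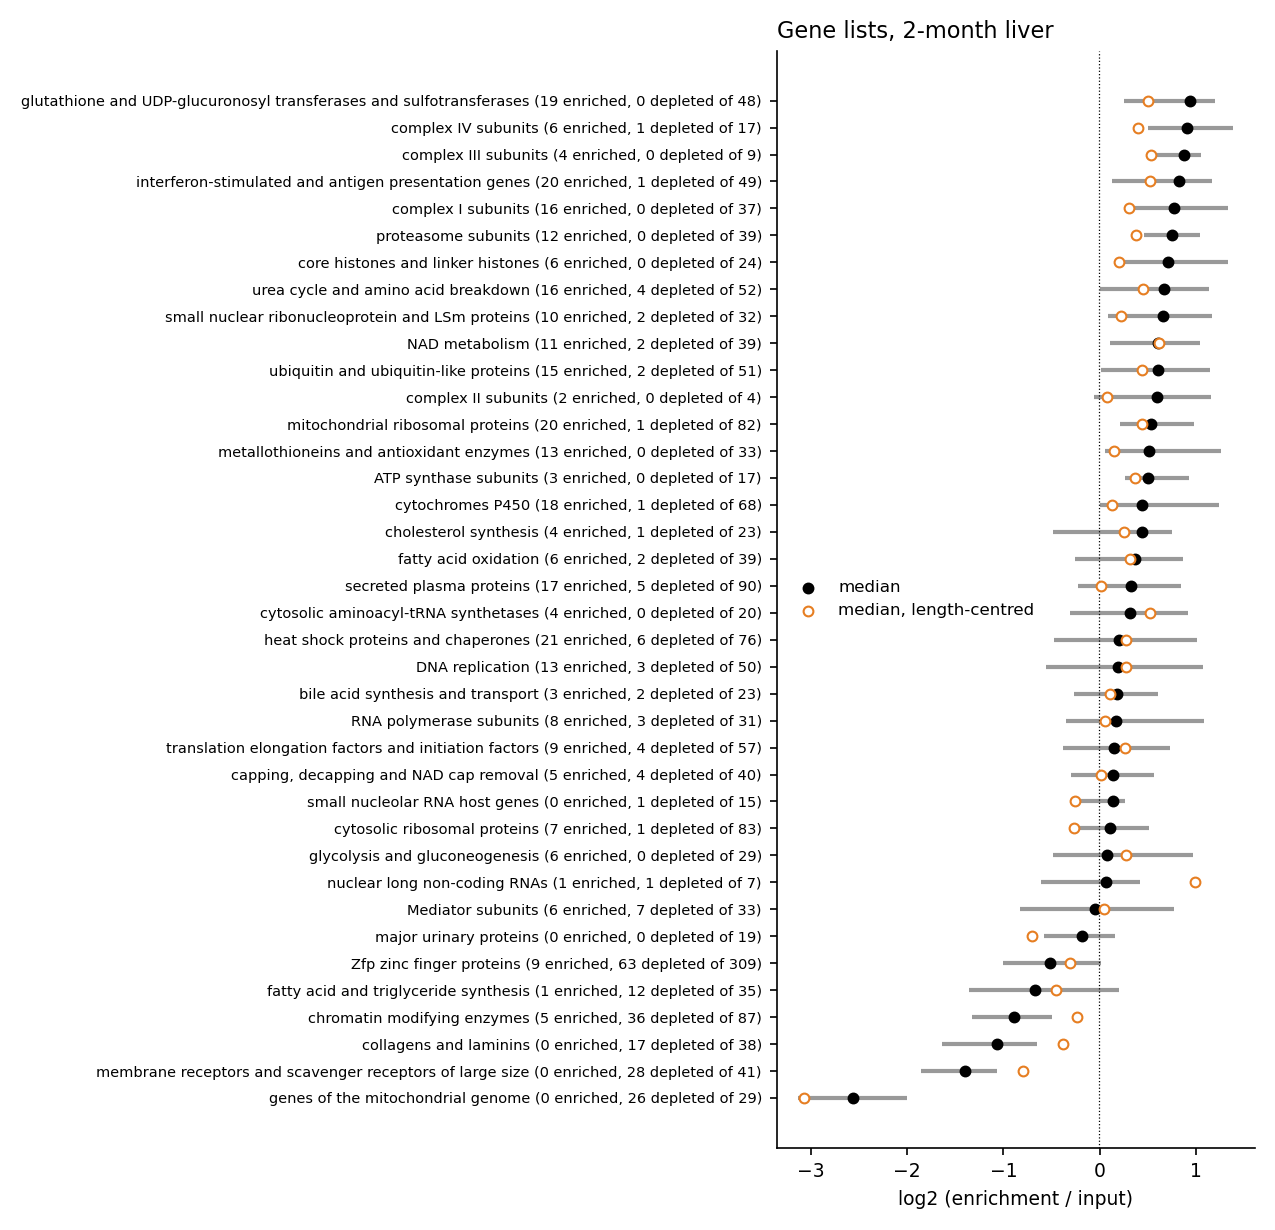
Median log2 fold change (filled) and interquartile range (grey bar) of each functional gene list, with counts of enriched and depleted members among those tested; open circles give the median after subtracting the median of all genes in the same length decile. The dotted line marks the median of all genes, and conjugating enzymes (0.93) and the mitochondrial genome (-2.56) form the ends.

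Genes that make, use or split NAD had 11 of 39 members enriched and 2 depleted (median 0.60). Tdo2, which starts the synthesis of NAD from tryptophan, had 1966, 1744, 1650 and 1509 cpm in input and 6158, 5734, 6197 and 5440 cpm in enrichment (log2 fold change 1.78). The depleted ones were Enpp1, an ectoenzyme that hydrolyses nucleotides, at -2.18, and Afmid of the kynurenine pathway at -1.20. Of 40 capping and decapping genes, 5 were enriched and 4 depleted (median 0.13), and 3 and 7 with library size alone. Nudt13, a mitochondrial Nudix hydrolase, was the highest (1.74), and Dcp2, the catalytic decapping enzyme for m7G caps, the lowest (-2.15). Dxo, which removes NAD caps and was named after its values were seen, had a log2 fold change of 0.46 and was not called.

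Protein turnover and translation were uneven. The proteasome had 12 of 39 subunits enriched and 0 depleted (median 0.74), with Psmb2 at 1.91. Ubiquitin-like systems had 15 of 51 enriched and 2 depleted, among them Ube2o at -1.79. Cytosolic ribosomal proteins, although short, had 7 of 83 enriched and 1 depleted (median 0.10), and their median after subtracting that of genes of like length was -0.26. Without replicate 2 they had 4 enriched and 6 depleted members, and with library size alone 3 and 8. Rpl7l1, a relative of the ribosomal protein Rpl7, led them at 1.74, and Rpl41 was at -1.33. The 2 elongation factors that carry aminoacyl-tRNA and move the ribosome differed. Eef1a1 rose from 3397, 3286, 3320 and 3226 to 8335, 7071, 9080 and 8379 cpm (log2 fold change 1.31). Eef2 fell from 1860, 1857, 1565 and 1820 to 597, 517, 458 and 522 cpm (-1.77). Over all elongation and initiation factors, 9 of 57 were enriched and 4 depleted (median 0.15), and of the aminoacyl-tRNA synthetases 4 of 20 and 0. With library size alone these counts turned to 4 and 8 and to 0 and 4. Heat shock proteins and chaperones had 21 of 76 enriched, led by Dnajc22 at 1.93, and 6 depleted, but 10 and 12 with library size alone.

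Nuclear functions divided by gene. Small nuclear ribonucleoproteins and LSm proteins had 10 of 32 enriched and 2 depleted, with Snrnp200, the large spliceosomal helicase, at -2.36 (48.9 to 57.6 against 7.42 to 13.6 cpm). Histones had 6 of 24 enriched and 0 depleted, RNA polymerase subunits 8 and 3 of 31, DNA replication genes 13 and 3 of 50, and Mediator 6 and 7 of 33. The study drew these 4 themes from the same libraries. RNA splicing, to which the small nuclear ribonucleoproteins belong, was a further theme it named for young liver. The counts of these lists are no independent evidence. DNA replication had 6 enriched and 11 depleted members with library size alone, and 12 and 1 without replicate 2. RNA polymerase had 6 and 6 with library size alone, and 1 depleted member without replicate 3 or 4. Of 99 annotated histone genes, 43 had no counts in these polyA-selected libraries. The 24 tested had a median input of only 1.54 cpm. Within Mediator, Med17 rose from 11.3, 11.3, 13 and 11.1 to 72.7, 56.6, 72.8 and 61.6 cpm, while Med13, part of its kinase module and 10840 bases long, fell from 14.1, 13.2, 15 and 14.7 to 3.15, 3.20, 1.86 and 3.42 cpm (-2.31). Chromatin modifying enzymes had 36 of 87 members depleted and 5 enriched, 3 without replicate 1 (median -0.89), from Tet3 at -1.87 to Hdac1. Of 309 Zfp zinc finger genes, 63 were depleted and 9 enriched (median -0.52), with Zfp871 at -2.99. Nuclear long non-coding RNAs had 1 of 7 enriched and 1 depleted, and host genes of small nucleolar RNAs 0 and 1 of 15 (0 depleted without replicate 2 or 3).

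Lists of the cell surface and matrix had no enriched member. None of 38 collagens and laminins and none of 41 large membrane receptors was enriched, while 17 and 28 were depleted (medians -1.07 and -1.39). Notch1 fell from 9.95, 6.98, 5.43 and 4.72 to 1.42, 1.33, 0.707 and 0.77 cpm (-2.67), and Lama5 had a log2 fold change of -2.85 at 1.26 to 1.81 cpm in input. Their median lengths were 8155.5 and 10782 bases. After subtracting the median of genes of like length, the medians were -0.38 and -0.80, that of chromatin enzymes was -0.24, that of NAD metabolism 0.61 and that of complex I 0.30.

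Interferon-stimulated and antigen presentation genes had 20 of 49 enriched and 1 depleted (median 0.82). The study named the immune system and interferon from these libraries, so these counts are no independent evidence. B2m, the light chain of class I molecules, rose from 1535, 1615, 1688 and 1383 to 4584, 5371, 4448 and 4485 cpm (log2 fold change 1.60). The depleted one, Mx1, had at most 1.22 cpm, and H2-Q2, at most 6.08 cpm, is 1 of a family of close paralogs. Both fractions of a pair came from the same RNA. Markers of Kupffer cells, the liver macrophages, summed to 426 to 742 cpm in input and 841 to 1384 cpm in enrichment, with 4 of 11 enriched, led by C1qa (2.10). The part of these markers in the interferon and antigen list was not tested. For sinusoidal endothelial cells the sums were 194 to 243 and 159 to 174 cpm, with 2 of 8 depleted and the scavenger receptor Stab1 at -2.07. Stellate cell markers had 1 of 8 enriched (Dcn) and 3 depleted (Reln, -2.52). Of 7 lymphocyte markers 2 were enriched (1 without replicate 3 or 4), of 5 red cell markers 1, of 6 hepatocyte markers 1 and of 5 cholangiocyte markers 0, with none depleted. The lymphocyte markers had a median input of 0.358 cpm, close to the level of 3 counts, where depletion can hardly be called. The enriched red cell marker, Hba-a2, averaged 0.62 cpm in input.

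In the livers of 18-month-old mice, 1800 genes were enriched (11.5%) and 2292 depleted (14.7%) of 15636. Of the genes enriched at 2 months, 1385 (71.1%) were also enriched at 18 months, which is 76.9% of the latter. For depleted genes the number was 1770, 78.9% of those at 2 and 77.2% of those at 18 months. No gene was enriched at one age and depleted at the other.

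The difference in enrichment between the ages, tested as an interaction, passed an adjusted p of 0.05 for 8 genes (0.0512%), 3 higher (0.0192%) and 5 lower in young liver (0.032%), while 1275 had an unadjusted p under 0.05. Gchfr, which regulates tetrahydrobiopterin synthesis, had log2 ratios of 1.03, 1.58, 1.39 and 1.74 in the 4 young pairs and 0.50, 0.60, 1.00 and 0.71 in the 4 aged pairs. Those of Cyp2a5, which oxidizes coumarin and nicotine, were -0.35, -0.57, -0.37 and -0.47 in young and 0.10, 0.26, 0.17 and 0.16 in aged liver. The groups did not overlap for either gene, although for Gchfr only narrowly (1.03 against 1.00). Both genes were named because they passed this test on the same libraries, so the separation is no further evidence. Single pairs changed these counts: without replicate 4 of both ages 0 genes passed, whereas without replicate 3, 75 were higher and 11 lower in young liver. Without the block for animals 0 passed.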

How the data were processed

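Liver RNA of 4 mice of 2 months and 4 of 18 months was measured as input and enrichment libraries. Trim Galore, STAR (genome GRCm38) and featureCounts, run without strand, were used by the authors, who deposited whole-number counts per gene without normalization. Reads with several matches were not counted. Gene types, lengths and positions came from GENCODE M21; 181 gene identifiers, 10 of them tested, were not in it.

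edgeR 4.0.16 (R 4.3.3) was used with TMM, glmQLFit and glmQLFTest, with the replicate number as a block. Two-sided p-values were adjusted by Benjamini-Hochberg over all tested genes. The standard error was the log2 fold change divided by the root of F. Values per library are cpm scaled by TMM; pair ratios are log2 cpm with a prior count of 2. Enrichment and input with the same number came from 1 biotinylated RNA, and their deviations from the group means correlated at 0.175 to 0.298. Those of different numbers correlated at -0.001 or less. Such deviations cancel out over the replicates, so the negative values follow from the positive ones and add nothing. On simulated counts of 15273 genes with 4-fold changes, 91 of 100 raised and 85 of 100 lowered genes were recovered. In that run 1 unchanged gene was called. For the age difference (15523 genes) these numbers were 88, 74 and 1. The simulation changed only these few genes, equally many in each direction, and held no animal effect. It therefore cannot test the scaling or the pairing.

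The age difference used all 16 libraries with animals nested in age. Named genes were the 10 most enriched and 10 most depleted protein-coding genes (a mean of at least 50 counts, 4 of 4 pairs), 3 of each direction among non-coding genes and pseudogenes, the extreme and most abundant members of each list, the study's qRT-PCR genes and genes that differed with age. Members and lists were chosen with earlier results of these data known. DESeq2 1.42.0 and other alternatives are given in the closing section; length-centred medians, transcript parts and first bases by length were added after seeing the data. Sequences came from RefSeq, and 10927 tested genes matched a window. No technical batch is given in the labels.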

Additional observations from a re-analysis of the deposited data

Results flagged for a closer look

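Among the named genes, the log2 ratio of 1 pair lay apart from the other 3 beyond the 95% limit of Dixon's test for 8 of 147 genes, and chance gives about 1 in 20. The ratio was 3.99 in pair 2 of Gm11189 (others 2.49 to 2.66), 2.40 in pair 2 of Gm20319 (2.06 to 2.10), 2.31 in pair 4 of Gm49431 (1.67 to 1.76) and 2.49 in pair 2 of Snrpg (1.07 to 1.27). It was 1.48 in pair 3 of H2-Q2 (2.19 to 2.30), -2.90 in pair 3 of Med13 (-2.10 to -1.99), -0.99 in pair 2 of Mx1 (-2.13 to -1.96) and -0.50 in pair 3 of Gm15459 (-0.64 to -0.63).

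Enrichment differed between the ages, by the interaction term of edgeR's quasi-likelihood fit with Benjamini-Hochberg adjustment, for 8 genes. The difference, young minus aged, was 0.73 for Gchfr, 0.69 for Sdf2l1, an endoplasmic reticulum protein, and 0.50 for Ufc1. It was -0.90 for the lipid droplet gene Cidec, -0.61 for Cyp2a5, -0.59 for the pseudogene Gm15459, -0.54 for the chaperone Hspa8 and -0.50 for the deiodinase Dio1.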

How the results depend on the processing

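Without the replicate block, which gave 1928 enriched and 2184 depleted genes, 1885 and 2159 calls were shared with the paired fit; the numbers of calls also stayed within 1.5 times under DESeq2 (1874 and 2093), its size factors, both filters on low counts, the fit of all 16 libraries, and without each replicate (1839 to 1919 enriched, 2075 to 2234 depleted). With library size alone they were 872 and 3820, and 970 and 1065 in a test against a 2-fold change. Genes with an age difference, 3 higher and 5 lower in young, became 0 and 0 without the replicate block, 9 and 15 with DESeq2, and ranged from 0 to 75 and from 0 to 11 without single replicates. The Spearman rank correlation of log2 fold change with length, -0.47, was -0.51 with the longest transcript, -0.52 in protein-coding genes and with the coding sequence, -0.35 with the 3′ UTR, -0.13 with the 5′ UTR and -0.38 with genomic span. With library size alone, signs turned for Fgb (-0.19), Nudt7 (-0.16), Snhg8 (-0.22), Ecm1 (-0.075) and Dio1 (-0.059). They also turned for Scp2 with all 16 libraries (0.0011), and without single replicates for Scp2 (-0.052 to 0.023), Snhg8 (-0.071 to 0.35) and Egfr (-0.10 to 0.067). The cause was not tested. Over all settings of the named genes, 1675 values kept their side of the thresholds, 46 lost and 23 gained a call. Depth limits genes near 3 counts.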
